A study of Mus musculus with 2 samples.

Results

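Tau and 6 other microtubule-associated proteins are described here, at the level of the gene and of the transcript: Mapt, Map2, Map1a, Map1b, Map4, Map6 and Dclk1. These 7 genes were taken by symbol from a fixed list, and all 7 were found among the 55536 annotated genes of the tables. Total RNA was sequenced from the hippocampus of adult male mice of strain 5xFAD/CAST, 8 to 10 months old, from The Jackson Laboratory. The tissue is labelled as a layer of the hippocampus. There are 2 libraries, each from 300 ng of RNA with ERCC spike-in RNAs, which the labels call biological replicates 1 and 2. As background, neurons of 5xFAD mice express mutant human APP of familial Alzheimer disease from a Thy1 promoter, and CAST is an inbred strain of wild origin. Both libraries belong to 1 group, so the design holds no contrast between conditions, and animals lacking the transgene are not analysed here. The labels give both libraries the same donor identifier, and each SD (n = 2) and p-value covers the spread of these samples alone, which could be technical.

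Microtubules are hollow polymers of tubulin that stiffen axons and dendrites and carry their transport. Structural microtubule-associated proteins bind along the polymer and slow its loss. Tau, encoded by Mapt, is concentrated in axons and forms the neurofibrillary tangles of Alzheimer disease. MAP2 is its dendritic relative, and MAP4 is the relative found in most cell types. These 3 proteins bind through similar repeats near their carboxyl end, and the repeats are partly optional because exons that encode them can be skipped. MAP1A and MAP1B are large proteins cut into a heavy and a light chain. MAP6 protects microtubules from cold. DCLK1 joins doublecortin domains, which bind microtubules, to a kinase domain.

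Models of Map2 and Map4 hold a repeat-coding exon of 93 bases that other models of the same gene skip. These exons are shown because the choice between forms with and without them sets the number of repeats, and they were used very unequally. Both are coding exons on the plus strand of mm10, read from the GENCODE M21 transcripts. The Map2 exon lies at chr1:66431527-66431619 and the Map4 exon at chr9:110072613-110072705. Capitals mark 3 successive glycine codons.
Map2: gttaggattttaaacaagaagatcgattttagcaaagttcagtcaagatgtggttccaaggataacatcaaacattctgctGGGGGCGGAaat
Map4: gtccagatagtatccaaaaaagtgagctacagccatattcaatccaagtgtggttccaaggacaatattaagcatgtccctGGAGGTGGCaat
Aligned without gaps, the exons shared 59 of 93 bases (63.4%).

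The part of tau that projects from the microtubule holds up to 2 inserts, each encoded by a coding exon of 87 bases on the plus strand. The first lies at chr11:104287123-104287209 and the second at chr11:104289908-104289994. They are shown because inclusion of these exons separates the measured tau forms. No part is in capitals.
First insert: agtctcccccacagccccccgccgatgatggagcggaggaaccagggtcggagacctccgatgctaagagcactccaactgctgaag
Second insert: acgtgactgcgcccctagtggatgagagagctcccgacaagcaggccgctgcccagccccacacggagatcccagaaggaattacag

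The libraries held 26128897 and 28689423 expected counts in replicates 1 and 2, and the limit of 3 counts that a 0 allows was 0.115 and 0.105 CPM. The 4 hippocampal markers (Prox1, Wfs1, Cpne4, Rgs14) each had a TPM, a level corrected for gene length and depth, of 1 or more in either library. The libraries stood apart in markers of neighbouring tissue. All 5 choroid plexus markers (Ttr, Folr1, Kl, Clic6, Kcnj13) and 5 of 6 striatal markers were more than 2-fold lower in replicate 2. Summed levels fell from 1190 to 182 TPM for the choroid plexus list and from 145 to 61.6 TPM for the striatal list. The sums of the hippocampal list were 160 and 193 TPM, and those of 4 neuronal markers (Rbfox3, Snap25, Syp, Camk2a) 2783 and 3123 TPM.

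All 7 genes were expressed in both libraries, and their levels spanned a 10.0-fold range. Map2 was the highest, at 454 and 444 TPM in replicates 1 and 2. Mapt stood at 134 and 147 TPM and Map6 at 44.7 and 45.1 TPM. Together the 7 genes held 0.361% of the TPM of protein-coding nuclear genes in each library. Among 22015 such genes, Map2 ranked at position 61 in replicate 1 and 74 in replicate 2, and Map6 at 2347 and 2430.

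Among the repeat-bearing relatives, Map2 averaged 449 ± 6.82 TPM (SD, n = 2), Map4 235 ± 27.9 TPM and Mapt 140 ± 8.65 TPM. Map4 was the most variable of the 7, at 215 and 254 TPM. The large MAP1 proteins had close levels. Map1b, which is prominent in growing axons, was at 267 and 284 TPM, and Map1a, its adult relative, at 255 and 263 TPM. Dclk1 was at 231 and 227 TPM. In descending order of the mean the genes were Map2, Map1b, Map1a, Map4, Dclk1, Mapt and Map6.

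Not every neighbour in that order was separated by more than the spread. The log2 ratio of Map2 to Map1b was 0.71 ± 0.08 (SD, n = 2), that of Dclk1 to Mapt 0.71 ± 0.11 and that of Mapt to Map6 1.64 ± 0.08. Each of these gaps was several times its spread. Map1b exceeded Map1a by 0.09 ± 0.03, and Map1a exceeded Map4 by 0.15 ± 0.14, barely more than the SD. Map4 and Dclk1 were not separated, since their log2 ratio was -0.10 in replicate 1 and 0.17 in replicate 2.

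The order in the middle also depended on the deposited quantification. In the alignment-free table, made from the reads without alignment, Dclk1 was second at 260 ± 13.0 TPM (SD, n = 2). There Map4 had 231 ± 38.7, Map1b 229 ± 21.6 and Map1a 228 ± 12.1 TPM, which were not separated from each other. The log2 ratio of Map4 to Dclk1 was -0.18 ± 0.17 (SD, n = 2) there, barely larger in size than its SD. Map2, Mapt and Map6 kept their places in that table, at 413 ± 11.3, 131 ± 9.20 and 47.0 ± 0.663 TPM. The alignment-free count was 1.13 times the alignment-based count for Map2 and 1.20 times for Dclk1, as means of both libraries. The median of the members was 1.15 in replicate 1 and 1.14 in replicate 2. Over protein-coding genes with at least 500 counts the medians were 1.14 in both libraries, and Dclk1 lay at the 87.8th and 85.3rd percentile of those genes.

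**Figure D1:**
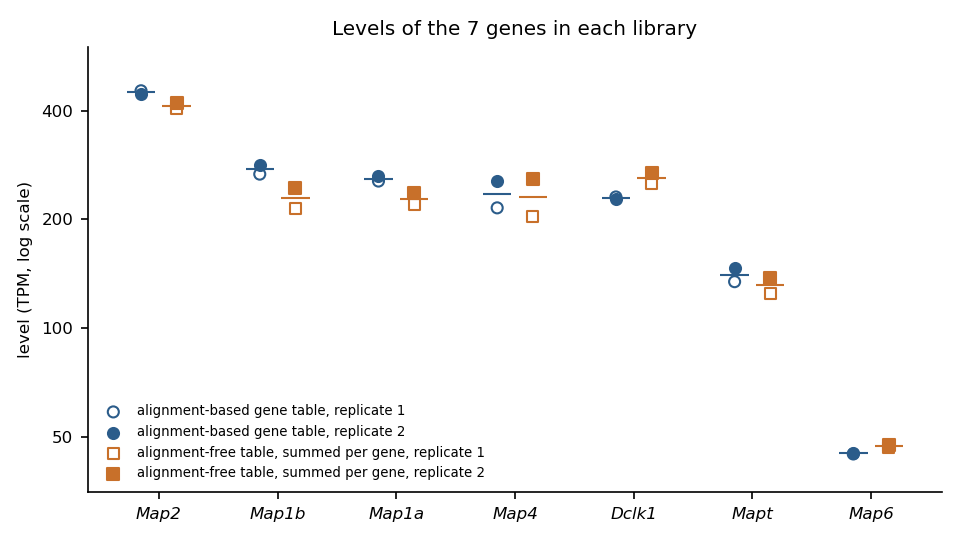
Levels of the 7 genes in TPM on a log axis, with open symbols for replicate 1, filled symbols for replicate 2 and lines for the mean of both. Circles show the alignment-based gene table and squares the alignment-free table. Map2 lies above, and Mapt and Map6 below, the 4 genes in between, whose order differs between the tables.

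The 7 genes differed little between the libraries, none by more than 1.5-fold. None of them was more than 2-fold apart after TMM scaling, where 2.00% of the 16971 genes tested (20 or more expected counts on average) were. In bulk tissue, fewer cells of a type and less RNA per cell cannot be told apart. The median absolute log2 ratio was 0.06 over the members and 0.12 over all genes tested. These medians are not matched for counts, and ratios of genes with few counts spread more. Map4 had the highest log2 ratio of replicate 2 over replicate 1, at 0.15, followed by Map1b (0.07), Mapt (0.06), Dclk1 (0.03) and Map1a (0.02). Map6 (-0.05) and Map2 (-0.08) were below 0.

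Small differences passed an exact test against counting error. A two-sided exact conditional binomial test was adjusted after Benjamini and Hochberg over all 16971 genes, and 4 of 7 members had an adjusted p under 0.05, where 18.4% of all genes did. Map4 (adjusted p = 2.2e-15), Map1b (6.2e-12) and Mapt (0.0339) were higher in replicate 2, a direction called for 9.21% of all genes, and Map2 (2.4e-13) was lower. Map1a (0.110), Dclk1 (0.160) and Map6 (0.413) did not pass. The test compares these libraries, not animals or conditions. It detects smaller differences at higher counts, and the percentages over all genes are not matched for the members' counts of 2863 or more. The call for Mapt was lost with library-size scaling (adjusted p = 0.0733, exact conditional binomial) and without the count minimum, and Map1a passed on alignment-free counts (0.0276). Scaling by the spike-ins moved the median log2 ratio of all genes to 0.27. On that scale all 7 genes were higher in replicate 2, with log2 ratios of 0.19 for Map2 to 0.41 for Map4, so Map2 and Map6 changed direction.

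These ratios stood beside larger shifts in other lists. The 4 neuronal markers had a median log2 ratio of 0.15 and the 4 hippocampal markers one of 0.20. Markers of inhibitory neurons did not follow, with a median of -0.25 over Gad1 (0.03), Gad2 (-0.25) and Slc32a1 (-0.28). The medians were -0.07 for 3 astrocyte markers, -0.05 for 4 oligodendrocyte markers and -0.10 for 3 microglial markers. They were -1.65 for the striatal list and -2.76 for the choroid plexus list. The part of tissue makeup in the members' ratios was not tested.

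**Figure D2:**
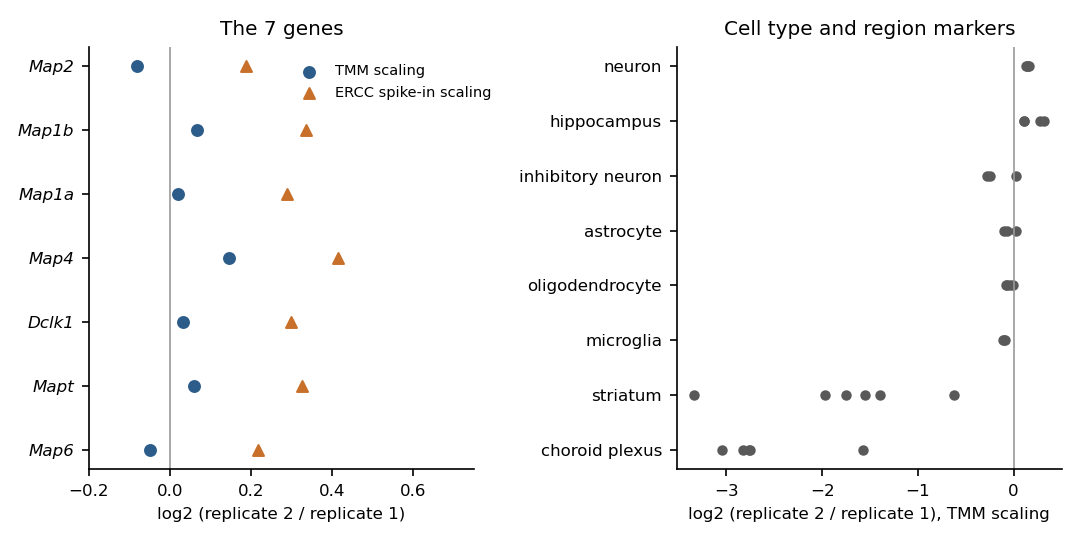
Log2 ratio of replicate 2 over replicate 1 for the 7 genes (left; circles for TMM scaling, triangles for spike-in scaling) and for single marker genes of each list with TMM scaling (right). With TMM scaling the 7 genes lie between -0.08 and 0.15, while choroid plexus and striatal markers lie far below 0.

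Most of the Mapt TPM was assigned to a model with neither insert. Mapt-204 held 65.0% of the Mapt TPM in replicate 1 and 63.3% in replicate 2, at 87.2 and 92.8 TPM. It has 1116 coding bases and is the only Mapt model with the long last exon of 4119 bases. How far this exon draws reads of other tau forms to Mapt-204, and so lowers the inclusion of the inserts, was not tested. Mapt-201, with both inserts and 1290 coding bases, held 9.58% and 9.11%. The alignment-free table gave 61.5% and 62.6% for Mapt-204 and 12.6% and 12.7% for Mapt-201. Mapt-207 held 13.3% and 14.3%, but it is a fragment of 293 bases with incomplete ends, and 62.7 and 78.4 expected counts lay behind it.

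The exon of the first insert was included in 26.6% and 27.2% of the Mapt TPM that could be assigned, and that of the second insert in 12.6% and 12.4%. An inclusion is the TPM of models that hold an exon, divided by the TPM of models that hold or skip it. In the alignment-free table the first insert was at 27.7% and 26.0% and the second at 16.9% and 17.3%. With only protein-coding models complete at both ends, both inserts were at 15.7% ± 0.228 (SD, n = 2), because the models that hold only the first are fragments. Hence the value for the first insert rests on those fragments, Mapt-207 above all. Exons known from peripheral or rare tau forms were low. The 759-base exon of big tau, the form of peripheral nerve, was at 3.02% and 3.57%, and a 198-base exon at 4.55% and 6.06%.

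Tau with 3 repeats, which lacks the exon of the second repeat, could not be measured. Of the 12 Mapt models in GENCODE M21, 5 hold that exon, none skips it, and 7 do not reach across it. Those 7 held 22.5% and 24.3% of the Mapt TPM. The share of 100% that the rule returns in both libraries and both tables is therefore set by the annotation and is no measurement. As background, adult mouse brain is known to make mainly tau with 4 repeats.

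Map2 was divided between a long and a short form. The long form holds a coding exon of 3741 bases at chr1:66412407-66416147 and is the high-molecular-weight MAP2 of mature dendrites. The short form skips that exon and is best known from developing brain. The long form had 55.3% of the assignable TPM in replicate 1 and 56.1% in replicate 2, or 55.7% ± 0.506 (SD, n = 2). The alignment-free table gave 54.7% and 55.3%. Both libraries and both tables thus placed slightly more TPM on the long than on the short form.

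A single model, Map2-204 with 5484 coding bases, carried the long form, at 198 and 194 TPM. The main short model, Map2-201 with 1401 coding bases, had 133 and 122 TPM. Their annotated ends differ, with a last exon of 397 bases in Map2-204 and 3790 bases in Map2-201, and the effect of this on the share was not tested. Another 16 models, with 21.2% and 22.1% of the Map2 TPM, neither hold nor skip the whole exon. When models with a part of the exon were counted as long, a setting chosen after the values were known, the share was 58.6% and 59.1%. The neighbouring coding exons of 207 and 135 bases, which belong to the long form, were included at 55.3% and 56.1% and at 56.0% and 56.1%. These values rest on nearly the same models as the share of the large exon and are no separate measurement.

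The extra repeat of MAP2 was rare. The 93-base exon shown above was included in 3.75% and 3.04% of the assignable Map2 TPM, and in 6.93% and 6.57% in the alignment-free table. Its main carrier was the short model Map2-207, at 14.0 and 10.9 TPM. A noncoding exon of 63 bases near the start of the gene, at chr1:66193119-66193181, was included at 32.8% and 25.4%, and at 22.5% and 17.6% in the alignment-free table. Both tables put it lower in replicate 2. These values cover a small part of the Map2 TPM. By alignment, models that hold the exon had 10.97 and 7.81 TPM, of 454 and 444 TPM for the gene. The only model that skips it, Map2-218, had 22.45 and 22.88 TPM and is a fragment of 546 bases with incomplete ends. All other Map2 models neither hold nor skip the exon and were not counted.

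Map4 showed the opposite level for its repeat exon. The 93-base exon was included at 95% in both libraries. The alignment-free table gave 81.8% and 84.0%, a gap of more than 10 percentage points that was far larger than the spread between the libraries. Inclusion of the Map4 exon exceeded that of the Map2 exon in every library and table. A 114-base coding exon just upstream, at chr9:110071026-110071139, was included at 24.4% and 19.6%. A 3180-base coding exon, at chr9:110037288-110040467, was included at 6.46% and 7.30%. That value rests on 1 model with incomplete ends, Map4-202, at 1.81 and 1.91 TPM. The models that skip the exon, Map4-201 and Map4-205, had 26.22 and 24.24 TPM together. All other Map4 models neither hold nor skip it and were not counted.

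Coding exons of 222 and 190 bases of Map4 were included in most of the assignable TPM, at 88.4% and 86.6% and at 85.8% and 82.9%. Only models with incomplete ends skip them, so the skipped part rests on fragments. Map4-210, without a coding region and at 12.86 and 17.17 TPM, is the only model that skips the 222-base exon. Map4-215 and Map4-216 are the only models that skip the 190-base exon. The leading Map4 model by alignment was Map4-204, which starts inside the gene and has 2799 coding bases. It held 30.0% and 30.6% of the Map4 TPM, and 20.3% and 21.3% in the alignment-free table, where Map4-206 led in replicate 1 at 21.7%. Models that end after the third exon, Map4-206 with 297 coding bases and Map4-209 with none, held 36.8% and 37.8%. Full coding models from the upstream start held 12.2% and 9.53%. Models with the internal start of Map4-204 held 32.7% and 33.2%. The order of these classes depended on the measure. By expected counts, models that end after the third exon held 24.7% and 24.9% and those with the internal start 47.8% and 50.8%. Full coding models from the upstream start held 21.3% and 17.4% by expected counts. These classes were drawn after the models had been seen.

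**Figure D3:**
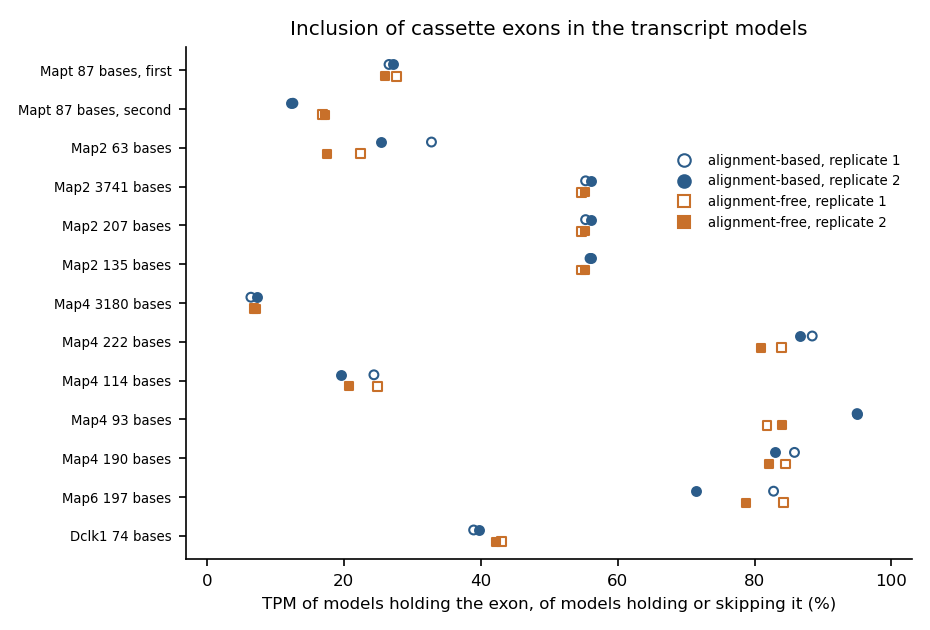
Inclusion of cassette exons, in percent of the TPM of models that hold or skip each exon, with exons named by gene and length. Open symbols are replicate 1, filled symbols replicate 2, circles the alignment-based and squares the alignment-free table. The 93-base exon of Map4 lies at 95% in circles and at 81.8% and 84.0% in squares, while the large Map2 exon lies between 54.7% and 56.1% in all 4.

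The MAP1 genes were the simplest. Map1b-201, with 7392 coding bases, held 78.9% and 79.7% of the Map1b TPM, and Map1b-206, a transcript without a coding region, 9.11% and 10.7%. Map1a-202 held 86.5% and 85.2%. Map1a-201 adds an upstream start and has 9042 coding bases against 8328, and it held 12.2% and 13.9%. The alignment-free table gave the upstream start of Map1a 8.36% and 8.86%. The leading model of Map1a and of Map1b was the same in both libraries and both tables, as it was for Mapt, Map2 and Map6.

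Of the exons named here, 1 in Map6 differed most between the libraries in both tables. This coding exon of 197 bases, at chr7:99317472-99317668, was included at 82.8% in replicate 1 and 71.4% in replicate 2, and at 84.3% and 78.8% in the alignment-free table. The models behind these values differ between the tables. Map6-209, a transcript of 677 bases without a coding region, holds the exon. It was at 7.79 and 6.52 TPM in the alignment-free table and at 0 by alignment. The length of the exon does not keep the reading frame. Map6-205, with 2718 coding bases, held 62.7% and 53.4% of the Map6 TPM. Of the 3 models that skip the exon, Map6-202 and Map6-206 have 918 coding bases each and differ in their start. Map6-206 was at 5.58 TPM in replicate 1 and at 0 in replicate 2, while Map6-202 was at 0.270 and 9.63 TPM. The deposited interval bounds of Map6-206 overlapped, running from near 0 to 6.0 TPM in replicate 1 and to 7.71 TPM in replicate 2. In the alignment-free table Map6-206 had 5.69 and 7.65 TPM and Map6-202 was near 0, so the exchange between these models was seen in 1 table only. Map6-204, which ends in the intron after the exon, held 17.2% and 18.9%.

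Dclk1 had no leading transcript. By the mean of both libraries the highest model was Dclk1-211, with 16.6% ± 0.214 of the Dclk1 TPM (SD, n = 2), but Dclk1-201 was the highest in replicate 2 and Dclk1-202 in both libraries of the alignment-free table. Dclk1-211 has 1499 bases, and by expected counts it held only 5.85% and 5.61%. On that measure Dclk1-201 held 24.5% and 32.3% and Dclk1-202 26.6% and 27.2%. Models that start upstream encode the doublecortin domains, and most models that start inside the gene hold the kinase exons without them. Models with an internal start and the kinase exons held 54.7% and 54.0%, and 50.1% and 48.6% in the alignment-free table. Models with the upstream start and the kinase exons held 17.4% and 20.8%, against 9.52% and 11.6% in the alignment-free table. Models with the upstream start and no kinase exons held 6.64% and 5.73%. The internal-start model without kinase exons, Dclk1-212, held 2.41% and 2.74%. These classes too were drawn after the models had been seen.

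A coding exon of 74 bases near the end of Dclk1, on the plus strand of mm10 at chr3:55521850-55521923, changes the reading frame of the carboxyl end. It is shown because no other Dclk1 exon was both held and skipped by 5% or more of the assignable TPM in every library and table. No part is in capitals.
Dclk1 exon: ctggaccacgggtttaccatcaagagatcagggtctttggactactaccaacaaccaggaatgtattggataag
It was included at 39.0% and 39.8%, and at 43.0% and 42.2% in the alignment-free table. The assignment of the doublecortin and kinase models depended on the table. The closely similar Dclk1-201 and Dclk1-204 had 28.7 and 39.6 TPM and 11.4 and 7.68 TPM in the alignment-based table. In the alignment-free table they had 0.770 and 0.0939 TPM and 23.1 and 31.2 TPM. Dclk1-205, a transcript of 557 bases without a coding region, was at 0 in the alignment-based table and at 25.2 and 34.9 TPM in the other.

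**Figure D4:**
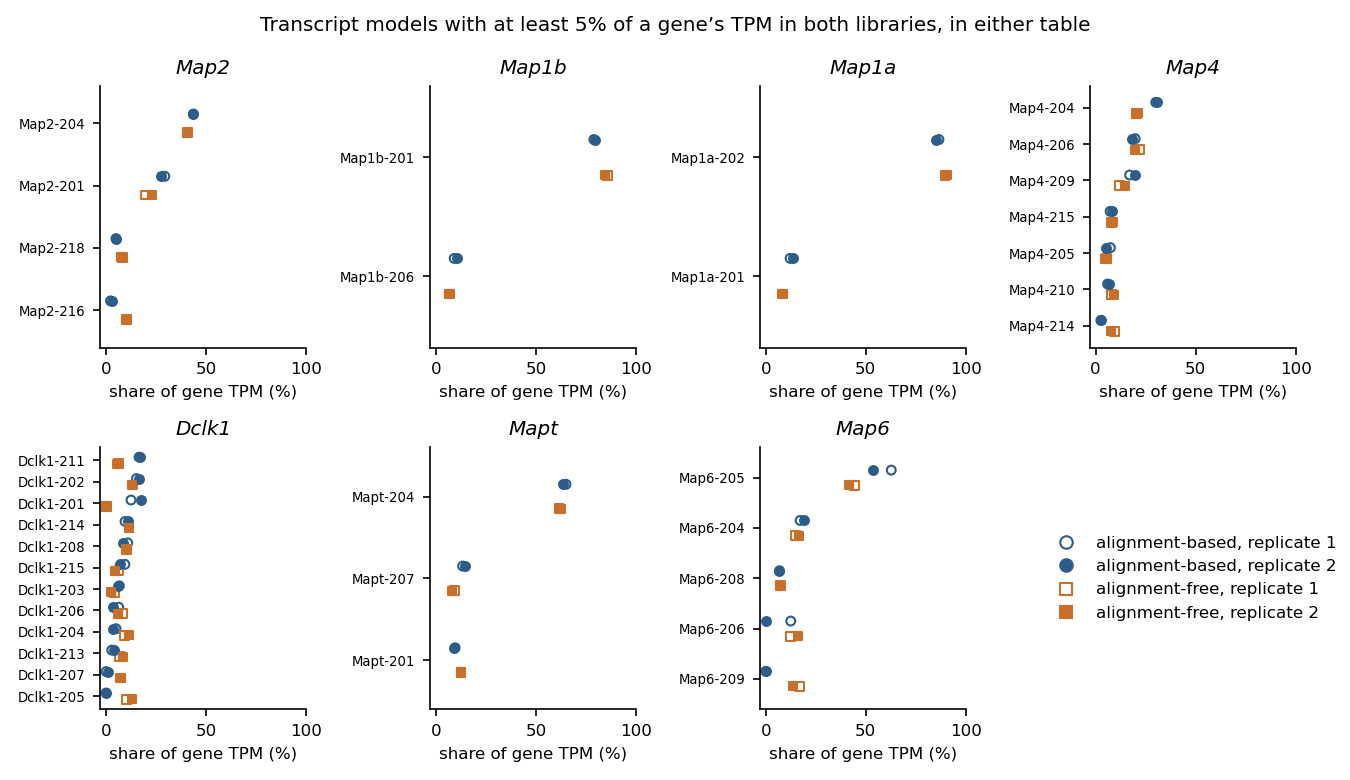
Share of each gene's TPM held by the transcript models that reached 5% in both libraries in either table. Open symbols are replicate 1, filled symbols replicate 2, circles the alignment-based and squares the alignment-free table. Map1a, Map1b and Mapt have 1 model above 60% in every case, while the highest Dclk1 share is 17.4%.

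Across the 7 genes, 59 of 87 annotated models were protein coding and 38 of these were complete at both ends. By alignment, 13 of the 87 models were at 0 TPM in both libraries. Complete protein-coding models held 98.6% and 99.1% of the Map1a TPM but 64.6% and 61.1% of the Map4 TPM. By expected counts, which are not divided by length, their share of Mapt was 97.4% in both libraries, against 76.9% and 75.3% by TPM. Short fragments thus took more of the TPM than of the counts for Mapt.

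Most other microtubule-associated genes of a fixed list were expressed at lower levels. Of 34, 31 reached TPM of 1 in both libraries, and the median over all 34 was 39.4 ± 0.414 TPM (SD, n = 2). Map2, Map1b, Map1a, Map4 and Dclk1 each exceeded every gene of that list in both libraries. Structural genes were led by Map7d1, a recruiter of kinesin-1, at 109 ± 7.51 TPM, Tppp, a tubulin-bundling protein of oligodendrocytes, at 107 ± 2.52 TPM and Map1lc3a, the autophagy protein first found with MAP1, at 99.7 ± 3.03 TPM. Genes listed in the plus-end class were led by Clip3 at 186 ± 18.6, the end-binding protein gene Mapre3 at 97.0 ± 8.24 and Clasp2 at 83.2 ± 1.90 TPM.

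Genes that guard the minus end, Camsap1, Camsap2 and Camsap3, stood at 54.7 ± 4.48, 54.4 ± 3.25 and 14.3 ± 0.757 TPM. Severing enzymes were the lowest class. The katanin subunit gene Katnal1 was at 24.5 ± 0.368 TPM, and Spast, which encodes spastin, at 19.0 ± 1.00 TPM. The 3 genes below the limit in at least 1 library were Map7d3, Fignl1 and Fign, the last at 1.79 and 0.890 TPM.

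None of the 32 list genes with enough counts was more than 2-fold apart between the libraries, where 2.00% of all genes were. In the exact conditional binomial test adjusted over all genes, 5 were higher in replicate 2 (Map7d2, Dclk2, Tppp, Mapre3, Clip3) and 4 in replicate 1 (Dcx, Dclk3, Mtcl1, Fign), beside 18.4% of all genes in either direction. The percentage over all genes was not matched for counts, and these 9 were named after their values had been seen. Doublecortin relatives of Dclk1 moved apart, with log2 ratios of 0.11 for Dclk2, -0.44 for Dcx, a gene of migrating young neurons, and -0.60 for Dclk3. The median log2 ratio of the list was 0.04, and that of the 7 genes 0.03. The median over all genes tested was -0.00176.

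**Figure D5:**
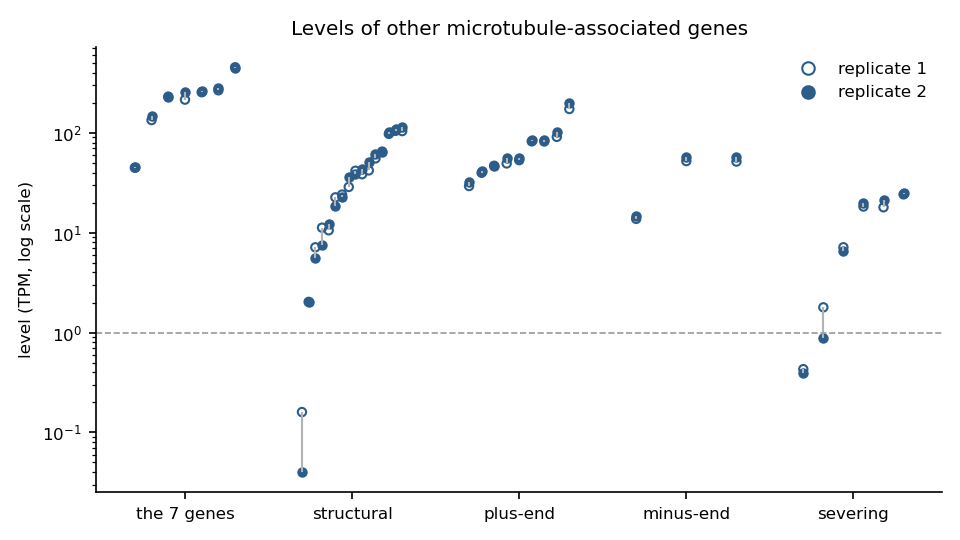
Levels in TPM on a log axis of the 7 genes and of the other microtubule-associated genes by class, with open circles for replicate 1, filled circles for replicate 2 and a line joining both. The dashed line marks TPM of 1, and 3 genes of the list fall below it in at least 1 library.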

How the data were processed

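Total RNA-seq of 2 hippocampal libraries was used. Each came with a gene and a transcript table from alignments and a transcript table made without alignment, on mm10 with GENCODE M21, per the labels and the deposited notes. The aligner and each quantifier: not given in the sources used here. Per the file headers, the deposited expected counts are estimated by the authors and need not be whole. The deposited TPM and FPKM correct for length and depth, and the deposited percent column gives each transcript's share of its gene, per the file headers. The file headers name the deposited interval bounds as bounds of TPM. For each of the 7 genes in both libraries they enclosed the posterior mean TPM.

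Alignment-free values were summed per gene. Expected counts were rounded for TMM factors (edgeR 4.0.16, R 4.3.3). Genes with 20 or more expected counts on average were compared between the libraries, by log2 ratios with a prior count of 0.5 and by an exact conditional binomial test with Benjamini-Hochberg adjustment. The steps were tested on simulated data. Exons and models came from the annotation. Reads from CAST alleles were counted on the reference, and the effect was not tested. The members and lists were chosen with earlier results of these data known. Transcripts were named at 5% of a gene's TPM in both libraries in either table, exons at inclusion of 5 to 95%, and list genes as the 3 highest of each class; some items these rules took are not reported here. Alternatives used DESeq2 (1.42.0) size factors, library size, spike-ins, posterior mean TPM, FPKM, the alignment-free table, other thresholds and single replicates. Floors cover counting error only.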

Additional observations from a re-analysis of the deposited data

How the results depend on the processing

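No member was more than 2-fold apart under TMM, DESeq2, library-size or spike-in scaling, on alignment-free counts, or at 1.5-fold. The count of 4 members apart beyond counting error was 3 to 5 under the other alternatives and 7 with spike-in scaling, where the median of all genes moved too. The long-form share of Map2 was 55.0% in the alignment-free table, 60.3% by expected counts and 58.8% with partial models counted as long, against 55.7%, and 55.3% and 56.1% with single libraries. The median ratio of alignment-free to alignment-based values was 0.938 for TPM in place of 1.15 for counts. The share of Dclk1 with an upstream start and kinase exons was 19.1% by TPM, 36.5% by counts and 10.6% without alignment, so its size depends on the measure. All 7 leading transcript shares moved beyond the spread in the alignment-free table, as did 6 of 7 gene levels. The alternatives for the inserts, the partial Map2 models and the Dclk1, Map6, Map4 and Map1a classes were chosen after seeing the data. With 2 libraries, precision rests on 2 values per gene. No paired analysis was possible because there is 1 group.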

Other observations

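Annotated antisense genes within Mapt (Gm11659), Map4 (Gm43732) and Dclk1 (Gm42609) had 0 expected counts in both libraries, and that within Map2 (Gm10558) had 1 count in each. Ppip5k1, on the opposite strand, overlaps the end of Map1a by 272 bases and stood at 48.6 and 46.5 TPM. On the same strand as the members, 5330431K02Rik within Map1b was at 6.72 and 5.68 TPM, Gm42433 within Map4 at 6.5 and 7.8 TPM and Gm42608 within Dclk1 at 4.66 and 4.76 TPM. The strand setting used for counting is not given in the sources used here, and without it reads of overlapping genes cannot be told apart.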
